A study of Mus musculus with 2 samples.

Results

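Haem, the iron-porphyrin of haemoglobin and of many enzymes, is assembled by a chain of enzymes that begins and ends in the mitochondrion and passes through the cytosol in between. This account follows the RNA of 8 of these enzymes, Alas1, Alas2, Alad, Uros, Urod, Cpox, Ppox and Fech, in mouse spleen. The genes were chosen by name, as members of the pathway, from the 8251 genes that the platform annotation ties to a probe set of their own. All 8 were measured, by 11 probe sets, and 0 further probe sets named a member together with another gene.

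The RNA was total RNA of mouse spleen bought from Clontech under 1 catalogue number and hybridised to 2 oligonucleotide arrays, called array 1 and array 2 after their titles. They form 1 group of 2, with no treatment, genotype or second tissue to compare with. The labels give no strain, age or sex, and do not say whether the arrays shared a tube, an animal or a labelling reaction. The SDs below are therefore those of 2 arrays, which may be technical, and no p-value was computed.

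The pathway starts when an ALA synthase joins glycine to succinyl-CoA, the step that sets the pace of the whole chain. Mammals have a pair of genes for it: Alas1, used in nearly all cells and repressed by haem, and the X-linked Alas2, used by developing red cells and controlled by erythroid factors and by iron. In the mouse the spleen forms red cells as well as breaking them down.

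The stretches of genome before the annotated starts of these genes are shown because Alas1 and Alas2 are known to differ in the factors that act there. Of the 8 genes, 7 (all but Fech) matched the RefSeq promoter table for assembly GRCm38.p6 by gene identifier, with 10 starts. Of the 7, 3 genes (Alas1, Alad and Uros) had 2 starts each and 4 had 1. The table was cut to the 250 bases before each start. The following 4 windows read 5′ to 3′ on the strand of the gene. They were picked as the 3 of the 10 that hold a GATA match, defined next, and the upstream window of Alas1. Capitals mark the letters AGATAA or AGATAG and likewise TGATAA or TGATAG, which erythroid GATA factors can bind, and CACCC, which KLF factors can bind, on either strand, so that TTATCT and GGGTG are their reverse complements.
Alas2 (single start, chrX:150547167-150547416, plus strand): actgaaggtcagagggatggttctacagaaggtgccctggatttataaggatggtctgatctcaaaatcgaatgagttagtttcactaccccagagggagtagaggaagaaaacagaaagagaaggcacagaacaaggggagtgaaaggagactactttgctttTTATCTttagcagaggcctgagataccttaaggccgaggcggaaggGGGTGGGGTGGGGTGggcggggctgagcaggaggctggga
Alas1 (upstream start, chr9:106247955-106248204, minus strand): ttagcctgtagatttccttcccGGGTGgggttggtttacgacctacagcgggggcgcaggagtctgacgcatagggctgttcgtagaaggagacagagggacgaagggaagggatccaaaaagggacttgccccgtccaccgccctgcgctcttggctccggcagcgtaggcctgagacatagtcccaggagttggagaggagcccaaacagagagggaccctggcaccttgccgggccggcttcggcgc
Cpox (single start, chr16:58669958-58670207, plus strand): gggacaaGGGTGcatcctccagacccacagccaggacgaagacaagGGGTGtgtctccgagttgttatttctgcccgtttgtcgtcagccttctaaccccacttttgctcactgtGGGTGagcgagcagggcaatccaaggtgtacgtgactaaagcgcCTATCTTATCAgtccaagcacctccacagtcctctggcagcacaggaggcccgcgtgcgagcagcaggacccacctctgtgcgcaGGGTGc
Uros (downstream start, chr7:133702501-133702750, minus strand): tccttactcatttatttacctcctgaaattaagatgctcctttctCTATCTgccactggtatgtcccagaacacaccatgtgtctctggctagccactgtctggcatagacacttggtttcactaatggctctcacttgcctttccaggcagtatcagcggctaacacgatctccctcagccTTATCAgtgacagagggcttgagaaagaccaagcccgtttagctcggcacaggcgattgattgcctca

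The Alas2 window held 1 GATA match, at bases 86 to 81 before the start, and a run of 3 CACCC matches at bases 40 to 26, the last of which shares a base with a GC box. The Cpox window held 2 GATA matches that share 1 base, at bases 91 to 81, and 4 CACCC matches. Uros is known for a housekeeping and an erythroid promoter, and its 2 annotated starts lay 6795 bases apart. Before the downstream start of Uros stood 2 GATA matches, at bases 205 to 200 and 68 to 63, and before its upstream start stood 0. The Alas1 windows held 0 GATA matches and 1 CACCC match each. Before the downstream start of Alas1, 224 bases from the upstream one, there were 2 matches to the motif of the respiratory factor NRF1, and 1 of them is shown in capitals with its flanks.
Alas1 (NRF1 motif, chr9:106247906-106247935, minus strand): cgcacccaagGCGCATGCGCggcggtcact

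**Figure D1:**
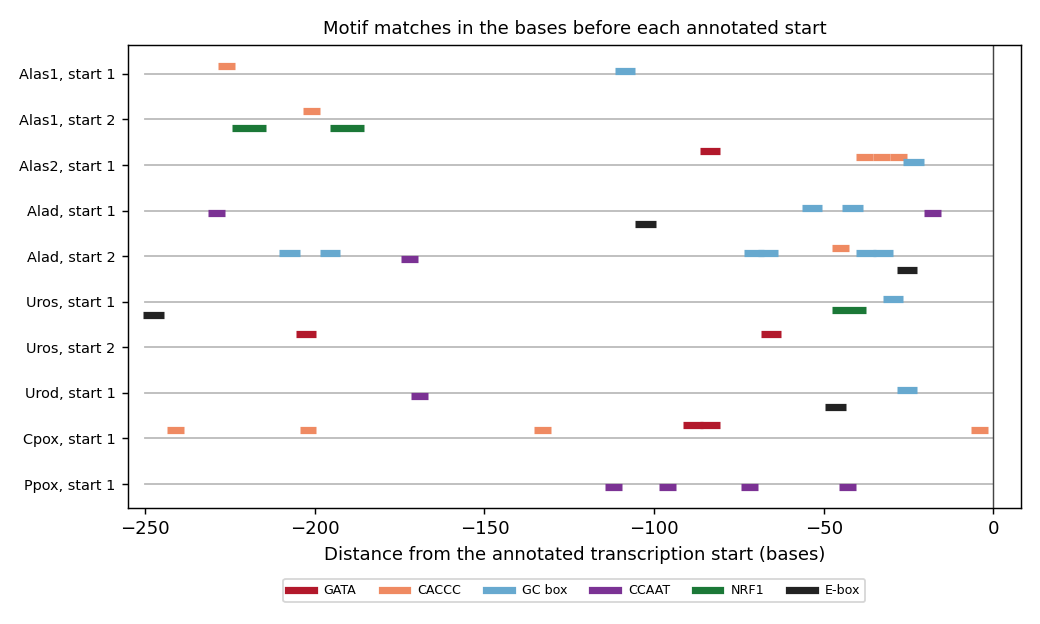
Matches to 6 motifs in the 250 bases before each of the 10 annotated starts of 7 haem synthesis genes. The horizontal axis is the distance from the start in bases, each grey line is a window and each coloured bar a match on either strand. GATA matches lie before Alas2, Cpox and the downstream start of Uros.

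Such matches are common, and the counts are read against all 32851 windows of the table. A GATA match was found in 3 of the 10 member windows and in 26.5% of all windows, so the share in the members is near that of the table. At least 2 GATA matches stood in 2 of the 10, Cpox and Uros, and in 6.40% of all windows. A CACCC match was found in 5 of the 10 and in 52.0% of all. Of the other motifs, NRF1 was matched in 2 of the 10 (3.74% of all), the E-box CACGTG in 4 (6.02%), the GC box GGGCGG in 6 (32.7%) and CCAAT in 4 (33.8%). The paired windows of Alas1 and of Alad overlap and share bases, so the 10 are not independent. The matches are descriptions of letters; which start the spleen RNA came from was not measured.

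The array values are signal intensities in arbitrary units, 1 per probe set and array. For orientation, the bacterial control probe sets, whose targets are foreign to mouse, reached at most 95 on array 1 and 76.2 on array 2. Bright means here a signal above the 60th percentile on array 1 (346.32) and also on array 2 (342.22). Where a gene had several probe sets, the one with the highest mean log2 signal stood for it. Probes differ in how strongly they bind and report their transcript, so intensities of different genes are given side by side and not as ratios of RNA. In a whole organ, fewer cells of a type and less RNA per cell cannot be told apart.

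Spleen RNA held clear signal for nearly the whole pathway. Of the 8 enzymes 7 were bright, against 45.2% of all genes, and Fech alone was not. On each array all 8 exceeded every bacterial control, as did 73.9% of all genes. The median over the 8 was 10.37 on the log2 scale, and 8.29 over all genes.

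The erythroid Alas2 gave 12643.8 on array 1 and 12819.9 on array 2, a mean of 12732 ± 125 (SD, n = 2 arrays here and below). Its signal exceeded that of 99.4% of all genes. The housekeeping Alas1 gave 1466.7 and 1583.1, a mean of 1525 ± 82.3, and exceeded 89.2% of all genes. Both synthases were above the brightness cutoff on each array. Their levels were read by different probe sets, so the values do not give the ratio of the 2 RNAs. The Alas2 probe set carries the suffix _s_at, which marks probes that may also read similar transcripts, and the Alas1 probe set carries none.

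**Figure D2:**
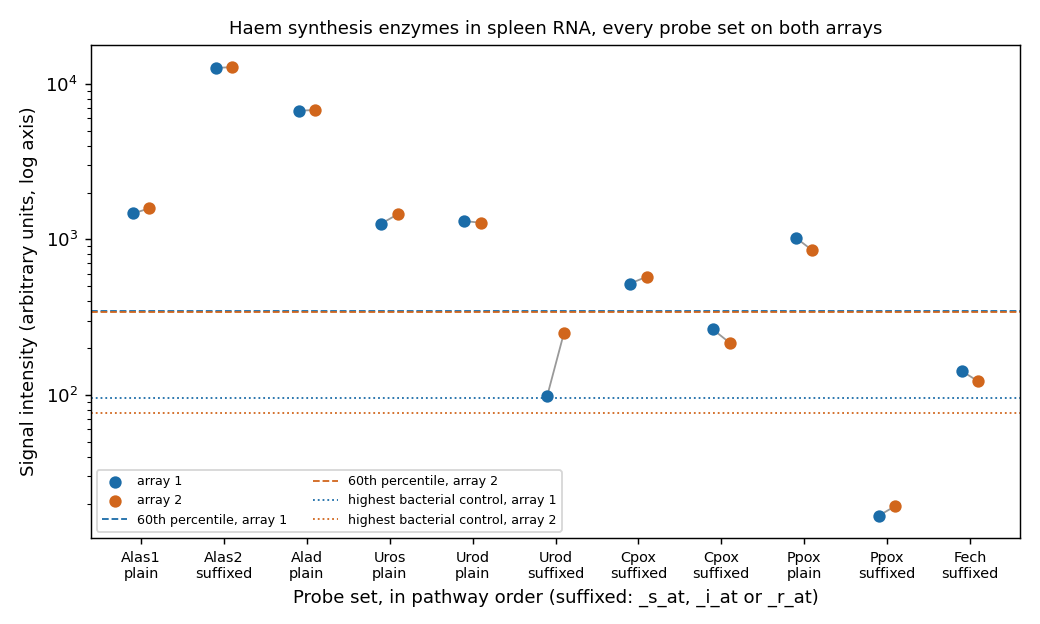
Signal intensity (arbitrary units, log axis) of all 11 probe sets of the 8 haem synthesis enzymes, in pathway order, with array 1 in blue and array 2 in orange joined by a line. Dashed lines mark the 60th percentile of each array and dotted lines its highest bacterial control; Alas2 and Alad lie highest, and the dimmer Ppox probe set is the only one under the dotted lines.

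The 3 measured cytosolic enzymes were all bright. Alad, ALA dehydratase, which condenses ALA to the pyrrole porphobilinogen and is the zinc enzyme that lead poisons, gave 6710.8 and 6793.0, a mean of 6752 ± 58.1, above 98.6% of all genes. Uros, uroporphyrinogen III synthase, which closes the ring with its last pyrrole turned around, gave 1264.0 and 1454.1, a mean of 1359 ± 134. Urod, which decarboxylates the side chains of the ring, gave 1310.7 and 1279.4, a mean of 1295 ± 22.1.

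The last steps, back in the mitochondrion, gave mean signals from 132 to 936. Ppox, which oxidises protoporphyrinogen to protoporphyrin, gave 1024.0 and 848.5, a mean of 936 ± 124, above 79.5% of all genes. Cpox, coproporphyrinogen oxidase, gave 519.5 and 575.3, a mean of 547 ± 39.5, above 65.5% of all genes. Fech, ferrochelatase, which inserts the iron and completes haem, gave 142.6 and 122.1, a mean of 132 ± 14.5. Only 30.1% of all genes were dimmer than Fech, although it stayed above the bacterial controls on both arrays. Cpox and Fech were read only through probe sets whose suffixes, _i_at and _r_at, mark an incomplete set of probes or relaxed probe selection.

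The suffixes are therefore given beside the calls. All 5 probe sets without a suffix were bright, those of Alas1, Alad, Uros, Urod and Ppox, against 40.9% of such probe sets on the arrays. Of the 6 suffixed probe sets 2 were bright, those of Alas2 and Cpox, against 31.8% of suffixed probe sets. Counted over all 11, 7 were bright, against 38.9% of all single-gene probe sets. The part of the probe design in the low signals of Cpox and Fech was not tested.

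For 3 enzymes a second probe set was available, and in each case it was dimmer and not bright. The second Ppox probe set gave 16.7 and 19.3, under the median of 20.6 and 22.9 of the bacterial controls, where the first gave 1024.0 and 848.5. The second Urod probe set gave 98.6 and 248.3, where the first gave 1310.7 and 1279.4. For Cpox both probe sets are suffixed, and the dimmer gave 263.3 and 216.5. The brighter Cpox probe set was 1.97 times the dimmer on array 1 and 2.66 times on array 2. Among the 1181 bright genes read by more than a single probe set, 74.6% also had a probe set that was not bright, so this pattern is common on these arrays. Of the second probe sets, that of Ppox alone did not exceed the bacterial controls.

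The arrays gave nearly the same values for the enzymes. Log2 differences, array 2 minus array 1 and centred on the median of bright probe sets, ranged over the 7 bright members from -0.27 for Ppox to 0.20 for Uros. Their median absolute difference was 0.11, and that of all bright genes was 0.12. Alas2 differed by 0.02, Alad by 0.02 and Urod by -0.03, while Alas1 differed by 0.11 and Cpox by 0.15. Of the 8 members 0 were over 2-fold apart, against 4.67% of all genes and 0.107% of bright genes. Of the 7 bright members 5 were higher on array 2, against 49.9% of bright genes.

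How large a difference the arrays give by themselves depends on brightness, so probe sets were split into 10 bands of mean log2 signal and the SD of a difference was computed in each. It was 0.16 in the band of Alas1, Alas2 and Alad, 0.21 in that of Uros, Urod and Ppox, 0.26 in that of Cpox and 0.78 in that of Fech. For 7 of the 8 members the observed difference was smaller than 1 such SD, and for Ppox it was 1.26 times as large. The only member probe set over 2-fold apart was the dimmer one of Urod, 2.52 times higher on array 2, a log2 difference of 1.33 and 2.54 times the SD of its band. In that band 6.20% of probe sets were over 2-fold apart.

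**Figure D3:**
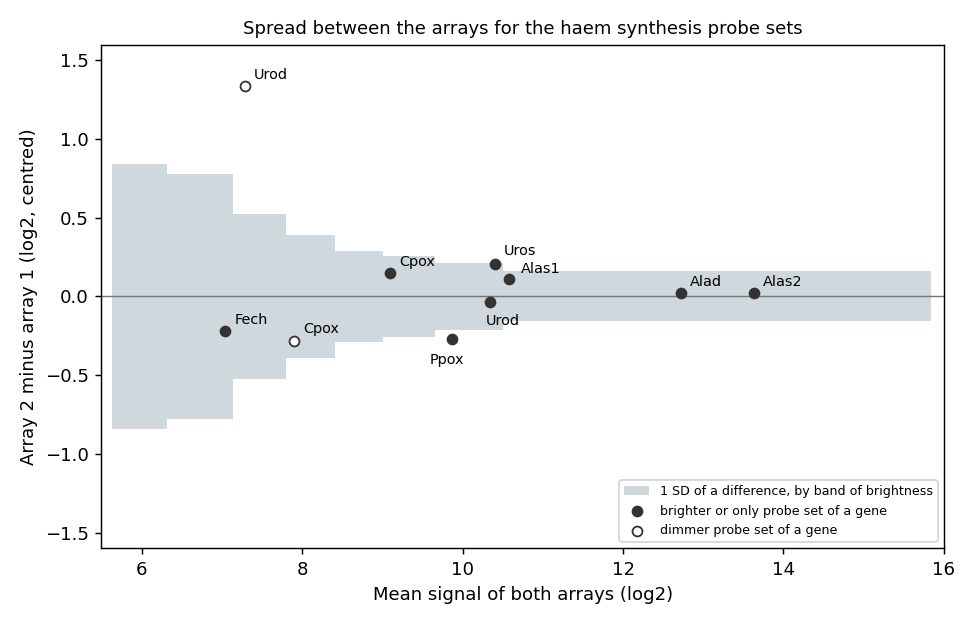
Log2 difference between the arrays (array 2 minus array 1, centred) against the mean log2 signal for the haem synthesis probe sets, with filled points for the brighter or only probe set of a gene and open points for the dimmer. Grey boxes span 1 SD of a difference on either side of 0 in each band of brightness; the bands at the floor are left out, and with them the dimmer Ppox probe set. Ppox lies just outside its box and the dimmer Urod probe set far above its own.

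Around the enzymes, 7 further lists covered what the pathway draws on and what uses its product. Of their 65 listed genes 49 were measured, and the counts below are of measured genes. They were 9 of 9 listed for glycine and succinyl-CoA supply, 6 of 10 for iron uptake and storage and 6 of 11 for mitochondrial transport. For iron-sulphur cluster assembly they were 5 of 9, for control 11 of 12, for haem proteins 9 of 10 and for breakdown 3 of 4. Together 38 of the 49 were bright, against 45.2% of all genes, and the count of each list is read against that share. For the substrates, 8 of 9 genes of glycine and succinyl-CoA supply were bright. They included the glycine transporter Slc6a9 at 1427 ± 23.9, the mitochondrial serine hydroxymethyltransferase Shmt2 at 460.0 ± 26.4, which yields glycine, and Ogdh, a subunit of the complex that yields succinyl-CoA, at 1649 ± 53.3. The cytosolic Shmt1, at 276 ± 9.33, was the one that was not bright.

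Iron has to reach Fech in the mitochondrion, and the genes of its uptake and storage were bright in 6 of 6 cases. The transferrin receptor Tfrc gave 3396 ± 345, the endosomal iron transporter Slc11a2 gave 462 ± 86.1 and Snx3, which returns the transferrin receptor to the cell surface, gave 4845 ± 64.8. The ferritin heavy chain Fth1, the iron store, gave 12244 ± 677. Of 6 genes of mitochondrial transport or of porphyrin and haem handling 5 were bright. These were Slc25a39 at 3401 ± 29.2, Tmem14c, which carries protoporphyrinogen across the inner membrane, at 2866 ± 69.6, the translocator protein Tspo at 5718 ± 197, the haem-binding Hebp1 at 1350.2 ± 142 and the porphyrin exporter Abcg2 at 561 ± 26.8. Abcb10, a mitochondrial transporter of erythroid cells, gave 294 ± 25.7 and was not. Fech carries an iron-sulphur cluster, and 4 of 5 genes of cluster assembly were bright, namely the cysteine desulphurase Nfs1 at 761 ± 89.6, Isca1 at 2488 ± 105, the ferredoxin Fdx1 at 697 ± 107 and the chaperone Hspa9 at 1538 ± 56.4. The scaffold Iscu, at 261 ± 11.03, was the exception.

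Of 11 measured genes that control haem synthesis 7 were bright, against 45.2% of all genes. The erythroid factors Gata1, Klf1 and Nfe2 gave 457 ± 1.77, 3177 ± 138 and 1027 ± 121. The haem-sensing kinase Eif2ak1, which slows globin translation when haem is short, gave 1103 ± 6.58. The members that were not bright were Aco1 at 100.35 ± 6.29 and Ireb2 at 301 ± 30.3, which encode the iron regulatory proteins that bind Alas2 RNA, Clpx, a mitochondrial unfoldase that acts on ALA synthase, at 25.6 ± 10.5, and Ppargc1a, a coactivator of Alas1 in liver, at 48.6 ± 20.2. The last 2 did not exceed the highest bacterial control on either array.

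On the side of use and breakdown, 7 of 9 genes of haem proteins other than globins were bright. Among them were cytochrome c1 (Cyc1) at 4980 ± 253, catalase (Cat) at 904 ± 122 and the phagocyte oxidase chain Cybb at 1033 ± 121. Cytochrome c (Cycs), at 169 ± 23.1, and Cyp51, at 181 ± 57.6, were not bright. Haem breakdown had 1 bright gene of 3, which is not above the 45.2% of all genes. The bright one was haem oxygenase Hmox1, at 7185 ± 515. Its constitutive relative Hmox2 gave 215 ± 48.5. Biliverdin reductase Blvra gave 377.7 and 185.2 on arrays 1 and 2, which differ by -1.03 (log2), 2.62 times the SD of a difference in its band.

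**Figure D4:**
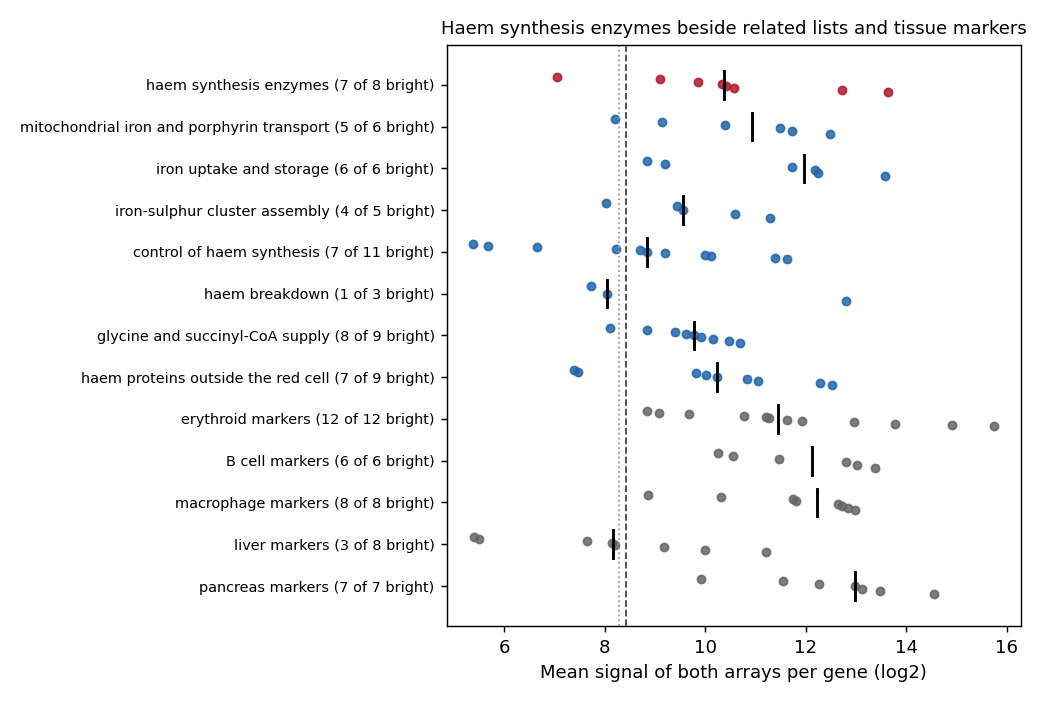
Mean log2 signal of both arrays for every measured gene of the haem synthesis enzymes (red), of 7 lists around the pathway (blue) and of 5 marker lists (grey), with a black bar at each median. The dashed line is the mean of the brightness cutoffs of the 2 arrays and the dotted line the median of all genes, 8.29. The enzymes have 7 genes to the right of the dashed line and Fech to the left. The label haem proteins outside the red cell stands for haem proteins other than globins. The label mitochondrial iron and porphyrin transport also covers the haem-binding Hebp1 and the porphyrin exporter Abcg2.

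Marker lists describe the cell types in the RNA, and their counts are read against the 45.2% of all genes that were bright. Only measured genes are counted. They were 12 of 18 listed for erythroid cells, 6 of 7 for B cells, 8 of 8 for macrophages, 7 of 10 for pancreas and 8 of 10 for liver. Erythroid markers were bright in 12 of 12 cases, including the band 3 anion exchanger Slc4a1 at 7947 ± 274 and the alpha globin Hba-a1 at 55352 ± 2735, whose near-identical copies the probe set may also read. Klf1 and Gata1 are counted in this list as well. The erythropoietin receptor Epor gave 615.3 on array 1 and 1078.5 on array 2. Its log2 difference of 0.81 was 3.78 times the SD of a difference in its band. Markers of B cells, such as Cd79a, Cd79b and Cd22, were bright in 6 of 6 cases, and those of macrophages, such as Csf1r, Adgre1 and C1qa, in 8 of 8. Among markers of other organs, those of pancreas, such as Ctrb1, Cel and Clps, were bright in 7 of 7 cases, with means from 974 to 24153. Liver, where Alas1 is the synthase in use, had 3 bright markers of 8, which is near the share of all genes. These were Alb at 2384 ± 302, Apoa1 at 581 ± 71.6 and Cyp2e1 at 1062 ± 448. Cyp2e1 gave 1379.1 on array 1 and 745.4 on array 2. Its log2 difference of -0.89 was 4.13 times the SD of a difference in its band. Ttr gave 204 ± 61.9, and Fgb and Tat did not exceed the highest bacterial control on either array. The part of these cells in the signal of Alas1 or of any other enzyme was not tested.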

How the data were processed

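RNA abundance was measured on 2 arrays of 12488 probe sets. The deposited table holds 1 linear signal intensity per probe set and array. The authors' software, scaling and detection calls are not given in the sources used here. With the lowest and highest 2% left out, both arrays had the same mean to the nearest unit (500.26 and 500.28). Genes were named from the platform annotation, and the identifiers of all 8 members were found in RefSeq under the same symbol. The 66 control probe sets stayed out of all counts. Values under the 20th percentile of an array (41.8 on each) were set to it before taking log2. The pooled SD between the arrays over 4708 bright probe sets was 0.15 (log2). The centring, the pooled SD of bright probe sets and the recovery of large added differences were checked on simulated arrays. The noise in these was equal at every brightness, unlike that of the real arrays, and the SDs by band were not checked. Arrays hold no read depth, and their number limits the precision.

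The members, lists and settings were chosen with earlier results of these data known. Genes named were all members, the first 3 measured genes of each other list, and those that a count of 5 or fewer left to be named. Fth1, Eif2ak1, Ogdh, Cybb, Slc4a1 and Hba-a1 were added after their values were seen. Alternatives changed 1 choice at a time: brightness cutoff, floor or a pseudocount of 16, normalization, probe set rule and each array alone. Computations ran in Python 3.11.15 (matplotlib 3.10.9, numpy 2.4.6, pandas 2.3.3).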

Additional observations from a re-analysis of the deposited data

How the results depend on the processing

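The number of bright enzymes, 7 of 8, was 7 on each array alone and with quantile normalization, 6 with the cutoff at the 75th percentile, where Cpox was lost, 6 when probe sets of a gene were averaged, where Ppox was lost, and 5 of 5 without suffixed probe sets. Fech stayed below the cutoff in each of these settings that measured it, and also at the 50th percentile, but passed with the highest bacterial control as the cutoff. Without suffixed probe sets 5 enzymes were measured and 5 exceeded the bacterial controls, because Alas2, Cpox and Fech have no probe set without a suffix. Averaging probe sets gave a median of the enzymes of 9.61 (log2), against 7.92 over all genes. Without a brightness filter the pooled SD was 0.317. With array 1 or array 2 alone the median was between 10.33 and 10.41. When probe sets were averaged the level of Urod fell from 10.34 to 8.81, that of Cpox from 9.09 to 8.50 and that of Ppox from 9.86 to 7.62 (log2), and with the pseudocount that of Fech went from 7.04 to 7.21. The levels of single-probe genes cannot change with the mean over probe sets, nor those above the floor without a floor. Quantile normalization keeps the order of probe sets within an array, so it could not change a percentile call. A gene bright on both arrays is bright on each alone while the same probe set stands for it. With each array alone, only the call of Fech could therefore have changed. No paired analysis was possible because there is 1 group. With 2 arrays, differences at the brightness of Fech are resolved only coarsely.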
